A study of Mus musculus with 42 samples.

Results

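A group of 7 genes of epithelial-mesenchymal transition was examined for occupancy by SOX2, β-catenin and LEF1: the zinc-finger repressors *Snai1* and *Snai2*, the bHLH factor *Twist1*, the zinc-finger and homeobox factors *Zeb1* and *Zeb2*, and the cadherins *Cdh1* and *Cdh2*. They were listed by name for their known roles in the transition, with earlier results of these data in view, and are 7 of 55413 annotated mouse genes. A peak belonged to a gene if it overlapped the gene body extended by 10 kb on each side, a window called the locus here. The 7 loci took 4030 of 9218878 peaks over all full lists, and 541 of 600000 when each list was limited to its 20000 best peaks by −log10 q.

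Chromatin immunoprecipitation followed by sequencing (ChIP–seq) was carried out in mouse embryonic stem cells of the HM1 TetON line and its derivatives. The cells had been differentiated and were collected at 72 h. All cells received bFGF (10 ng per ml) and LGK974 (5 µM), which blocks the secretion of WNT ligands. All groups but 1 also received CHIR99021 (CHIR), an inhibitor of GSK3 that turns the WNT pathway on, from day 2 to day 3. The paper names such cells epiblast-like without CHIR and caudal epiblast-like with it. With CHIR, all 3 factors were immunoprecipitated from wild-type (WT), Cdx1/2/4-/- (CdxKO) and T/Bra-/- (T/BraKO) cells, and without CHIR only SOX2 was, from WT cells, which gave 10 groups of 3 biological replicates. The genotypes are separate cell lines, so that line and genotype cannot be told apart, and peak lists hold no expression values with which the cell type or the loss of the *Cdx* genes or *T* could be checked.

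Lists held 26940 to 1008922 peaks, a length that differed between factors as well as between replicates. SOX2 lists ran from 26940 (T/BraKO replicate 3) to 1008922 (WT with CHIR replicate 1), β-catenin lists from 37687 to 469083, and LEF1 lists from 175430 to 924506. The 20000 best peaks were therefore 1.98% to 74.2% of a list, and peak 20000 had a −log10 q between 3.26 and 14.1.

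In epithelial-mesenchymal transition, cells leave an epithelial sheet and become migratory, as mesoderm does when it ingresses through the primitive streak. Snail, Twist and ZEB factors bind E-box elements and repress epithelial genes, foremost *Cdh1*, which encodes E-cadherin, while *Cdh2*, which encodes N-cadherin, is taken up in its place. β-catenin has a role on both sides: it links cadherins to the cytoskeleton at the membrane, and in the nucleus it is the co-activator of the TCF/LEF factors, of which LEF1 is one. SOX2 is a factor of pluripotent and neural progenitors.

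Peaks of all 30 lists (20000 best of each) were merged where they overlapped by at least 1 bp, which gave 336403 regions in the genome and 188 in the 7 loci. Regions are numbered within a gene from the one called in most lists. Printed here are 8 windows, from the most often called region of a member or from regions that every library of one compared group called and no library of the other did, each 201 bp long, centred on the summit of the best-ranked peak of the region and read from the plus strand of GRCm38.p6 (mm10). One further window, *Cdh1* region 5, was chosen after its values were seen because β-catenin called it in all 9 lists. Capitals mark a word of the SOX type (CCATTGT or CCTTTGT) or of the TCF/LEF type (CTTTGAA or CTTTGAT) on either strand.
Snai1 region 1, chr2:167540154-167540354, intron: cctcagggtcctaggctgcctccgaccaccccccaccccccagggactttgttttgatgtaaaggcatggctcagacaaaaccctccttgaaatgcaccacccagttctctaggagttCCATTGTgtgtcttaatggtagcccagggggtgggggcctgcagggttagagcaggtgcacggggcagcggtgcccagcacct
Snai2 region 1, chr16:14705330-14705530, upstream: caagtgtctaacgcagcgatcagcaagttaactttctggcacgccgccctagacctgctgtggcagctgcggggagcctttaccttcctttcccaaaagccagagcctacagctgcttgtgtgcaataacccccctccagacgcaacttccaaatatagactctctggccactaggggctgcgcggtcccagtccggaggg
Twist1 region 1, chr12:33955955-33956155, upstream: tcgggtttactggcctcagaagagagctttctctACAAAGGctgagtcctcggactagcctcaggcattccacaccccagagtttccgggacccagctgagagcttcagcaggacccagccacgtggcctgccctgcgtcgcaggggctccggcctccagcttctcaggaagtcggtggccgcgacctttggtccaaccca
Zeb2 region 1, chr2:45037702-45037902, intron: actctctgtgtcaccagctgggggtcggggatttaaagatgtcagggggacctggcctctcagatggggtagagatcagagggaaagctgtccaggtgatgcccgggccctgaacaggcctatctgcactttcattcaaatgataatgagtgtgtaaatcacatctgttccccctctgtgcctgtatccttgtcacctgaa
Zeb2 region 2, chr2:45111219-45111419, intron: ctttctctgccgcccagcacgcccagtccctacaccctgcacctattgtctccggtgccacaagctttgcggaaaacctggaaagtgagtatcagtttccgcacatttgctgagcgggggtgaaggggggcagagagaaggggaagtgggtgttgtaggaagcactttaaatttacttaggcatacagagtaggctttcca
Cdh1 region 1, chr8:106619691-106619891, intron: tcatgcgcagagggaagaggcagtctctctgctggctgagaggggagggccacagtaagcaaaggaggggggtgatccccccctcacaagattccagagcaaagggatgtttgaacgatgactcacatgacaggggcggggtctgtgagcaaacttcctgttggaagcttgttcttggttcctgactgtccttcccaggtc
Cdh1 region 2, chr8:106599641-106599841, upstream: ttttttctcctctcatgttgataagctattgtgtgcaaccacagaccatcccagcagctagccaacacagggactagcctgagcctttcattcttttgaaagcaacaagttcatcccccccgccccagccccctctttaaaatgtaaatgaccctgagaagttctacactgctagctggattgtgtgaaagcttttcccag
Cdh1 region 6, chr8:106621558-106621758, intron: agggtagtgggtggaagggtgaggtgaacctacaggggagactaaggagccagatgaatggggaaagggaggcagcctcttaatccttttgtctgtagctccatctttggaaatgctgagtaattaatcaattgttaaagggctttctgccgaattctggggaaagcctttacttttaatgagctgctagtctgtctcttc
Cdh1 region 5, chr8:106632695-106632895, intron: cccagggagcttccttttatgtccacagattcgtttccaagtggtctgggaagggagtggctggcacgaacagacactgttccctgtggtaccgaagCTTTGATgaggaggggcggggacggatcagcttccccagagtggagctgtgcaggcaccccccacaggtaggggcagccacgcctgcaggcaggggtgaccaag

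*Snai1* region 1 held 1 SOX word, CCATTGT, whose first base lay 18 bp after the summit, *Twist1* region 1 held 1 on the minus strand, and *Cdh1* region 5 held 1 TCF/LEF word, CTTTGAT, that lay over the summit. The other 6 windows held neither type. None of the 9 held a CDX word (CAATAAA or CCATAAA on the one hand, TAATAAA or TCATAAA on the other) or the T-box word AGGTGTGA. Over the windows of all 336403 regions, 10.8% held a SOX word, 13.2% a TCF/LEF word, 14.5% a CDX word and 1.06% the T-box word. Over the 4312 regions called in 15 or more lists, which include *Snai1* region 1, *Zeb2* regions 1 and 2 and *Cdh1* region 1, the shares were 26.0%, 37%, 10.3% and 1.04%.

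Occupancy differed widely between the 7 loci. The *Cdh2* locus had a peak among the 20000 best in 30 of 30 lists, *Zeb2* in 28, *Cdh1* in 27, *Snai1* in 25, *Twist1* in 19, *Zeb1* in 15 and *Snai2* in 11. Since the loci span 22.2 kb (*Twist1*) to 240 kb (*Cdh2*), levels between genes were compared per 100 kb. On that scale *Snai1* was the most densely occupied member for SOX2 in all 3 groups with CHIR and for β-catenin in all 3 groups. Its mean was 9.48 ± 8.46 peaks per 100 kb (SD, n = 3) for SOX2 in WT cells with CHIR, 16.2 ± 4.06 in CdxKO cells and 17.6 ± 6.2 for β-catenin in CdxKO cells, and 99.1%, 99.7% and 99.9% of protein-coding genes were lower. *Zeb1* was at the other end, with 0.164 to 0.655 peaks per 100 kb in the 10 groups, and 32.8% to 47.6% of protein-coding genes lay below it. The exception was SOX2 in WT cells without CHIR, where *Snai2* had no peak among the 20000 best in any library. *Cdh1* (1.15 to 6.52 peaks per 100 kb) and *Zeb2* (1.3 to 5.85) lay between them. No other protein-coding gene overlapped any of the 7 loci. Annotated genes of other types overlapped those of *Zeb2* (5), *Zeb1* (4), *Cdh2* (2), *Snai1* (1) and *Cdh1* (1).

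**Figure D1:**
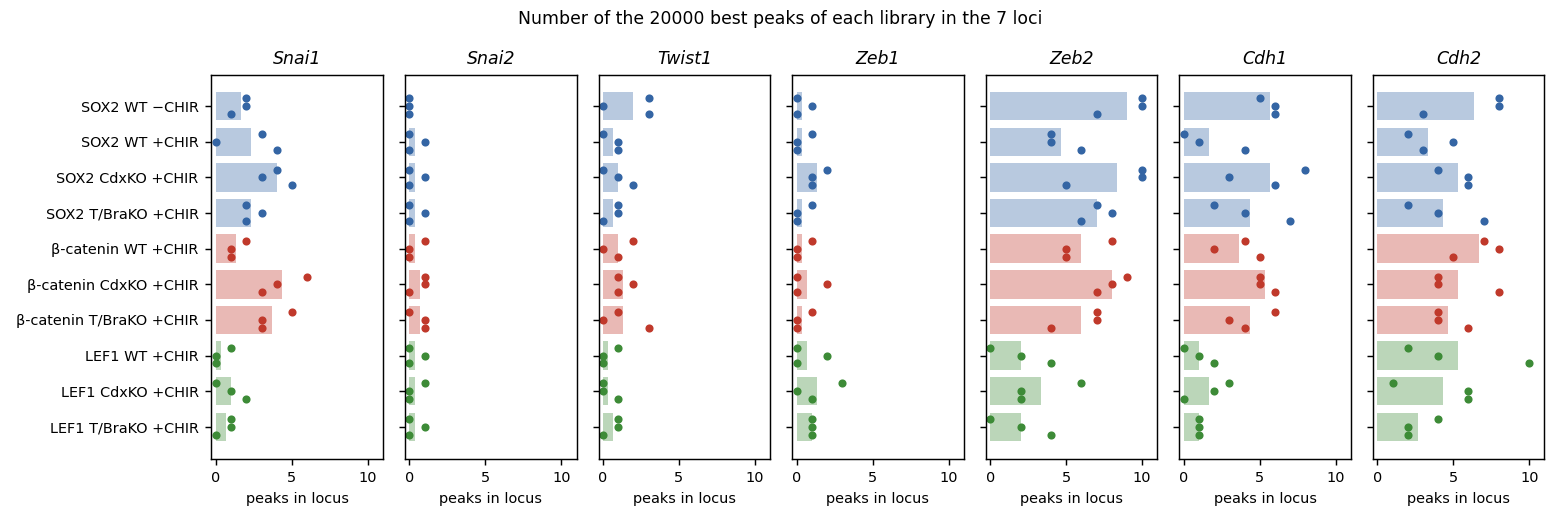
Number of the 20000 best peaks of each library (horizontal axis) that overlap each of the 7 loci, by group. Points are libraries and bars are the means of 3. *Zeb2*, *Cdh1* and *Cdh2* carry most peaks, *Snai2* has at most 1 in any library, and the mean of LEF1 (green) at *Snai1* is at most 1 in each group, below every mean of SOX2 (blue) and β-catenin (red).

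*Snai1*, the first Snail factor expressed in the primitive streak, lies at chr2:167538195-167542814. Its locus held 11 merged regions, of which region 1 (chr2:167539802-167541351) was called in 23 of 30 lists. The summit of the best peak lay in an intron, 2059 bp from the gene start. SOX2 called this region in 11 of 12 libraries and β-catenin in 9 of 9. LEF1 called it in 3 of 9, namely 0 WT, 1 CdxKO and 2 T/BraKO libraries. Fold enrichment for SOX2 was 24.7, 37.3 and 17.8 in WT cells without CHIR and 20.7, 4.79 and 8.57 with it, so that the WT replicates with CHIR overlapped the others. The peak of replicate 2 with CHIR ranked at 119075, outside the 20000 best. For β-catenin, fold enrichment was 14.2, 15.1 and 7.43 in WT, 20.0, 17.1 and 7.50 in CdxKO and 22, 15.6 and 12.8 in T/BraKO cells, and the 3 genotypes overlapped. A second region, centred 7984 bp upstream of the gene start, was called mostly by SOX2 among the 20000 best. There it was called in 10 of 12 SOX2 libraries, in 2 of 9 β-catenin libraries, both of them T/BraKO, and in no LEF1 library. In the full lists β-catenin had a peak there in 2 WT, 1 CdxKO and 3 T/BraKO libraries, and LEF1 in 1, 1 and 2. The contrast is thus one of rank.

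*Snai2*, the paralogue that marks neural crest and mesoderm, lies at chr16:14705852-14709385 and was the least often called member. Its locus had at most 1 peak among the 20000 best of each list. The single recurrent region lay at the promoter, 422 bp upstream of the gene start, and was called in 7 of 30 lists (2 SOX2, 4 β-catenin and 1 LEF1). *Twist1*, a bHLH factor of mesoderm and neural crest at chr12:33957671-33959829, had 11 regions, none called in more than 8 lists. These regions lay 1616 bp upstream of the gene start (8 lists) and 9158 bp from it, beyond the end of the gene (7 lists), and the SOX word in the window of the first began 66 bp before the summit. Within 1 kb of its gene start, *Twist1* was called in 1 list only.

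*Zeb1* and *Zeb2* encode related repressors, and of the 2 loci *Zeb2* alone held regions called in 10 or more lists. At *Zeb1* (chr18:5591860-5775467), 15 of 17 regions were called in a single list, and none lay within 1 kb of the gene start. The most often called, region 1 (chr18:5711882-5712063), 120123 bp into the gene, was called in 3 lists, 1 β-catenin list of each genotype, at 4.95- (WT), 5.30- (CdxKO) and 7.76-fold (T/BraKO). At *Zeb2* (chr2:44983632-45117395, minus strand), 52 regions were found, and 4 were called in 10 or more lists. *Zeb2* region 1 (chr2:45037243-45038875), in an intron 79593 bp from the gene start, was the most shared region of all 7 loci. It was called in 25 of 30 lists, by SOX2 in 11 of 12, β-catenin in 9 of 9 and LEF1 in 5 of 9. *Zeb2* region 2 (chr2:45109932-45111673), 6076 bp into the gene and within 1 kb of an annotated alternative start, was called by SOX2 in 12 of 12 libraries, by β-catenin in 6 of 9 and by LEF1 in none. *Zeb2* region 3 covered the gene start and was called in 13 lists, 9 of SOX2 and 4 of β-catenin.

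E-cadherin is encoded by *Cdh1* (chr8:106603351-106670246), whose locus held 28 regions, 5 of them called in 10 or more lists. They lay 3610 bp upstream (region 2) and 7761, 14002, 16440 and 29444 bp into the gene. The gene start itself was seldom called: 4 of 30 lists had a peak within 1 kb of it. *Cdh1* region 5, 29444 bp into the gene, was called among the 20000 best by β-catenin in 9 of 9 libraries, by SOX2 in 1 of 12 and by LEF1 in 1 of 9. In the full lists 5 of 12 SOX2 libraries and 5 of 9 LEF1 libraries had a peak there, so that the contrast is one of rank. β-catenin fold enrichment there was 7.61, 6.73 and 19.7 in WT, 7.67, 6.77 and 8.09 in CdxKO and 22.5, 5.76 and 10.4 in T/BraKO cells, with all 3 genotypes overlapping.

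At N-cadherin's gene, *Cdh2* (chr18:16588877-16809246, minus strand), 64 regions were found, 50 of them in a single list. The gene start was occupied more often than in any other member, with 20 of 30 lists (10 SOX2, 8 β-catenin and 2 LEF1) calling a peak within 1 kb. *Cdh2* region 1, 65355 bp into the gene, was called by β-catenin in 9 of 9 libraries. Of SOX2, 4 of 12 libraries called it among the 20000 best, and 1 of 9 of LEF1. In the full lists SOX2 had a peak there in 3 WT libraries without CHIR, 2 WT with it, 1 CdxKO and 3 T/BraKO. LEF1 had one in 2 WT, 2 CdxKO and 1 T/BraKO libraries, so that the contrast is one of rank. Region 4, 138945 bp into the gene and within 1 kb of an annotated alternative start, was called by SOX2 in 9 of 12 libraries. Neither of the other factors called it among the 20000 best.

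**Figure D2:**
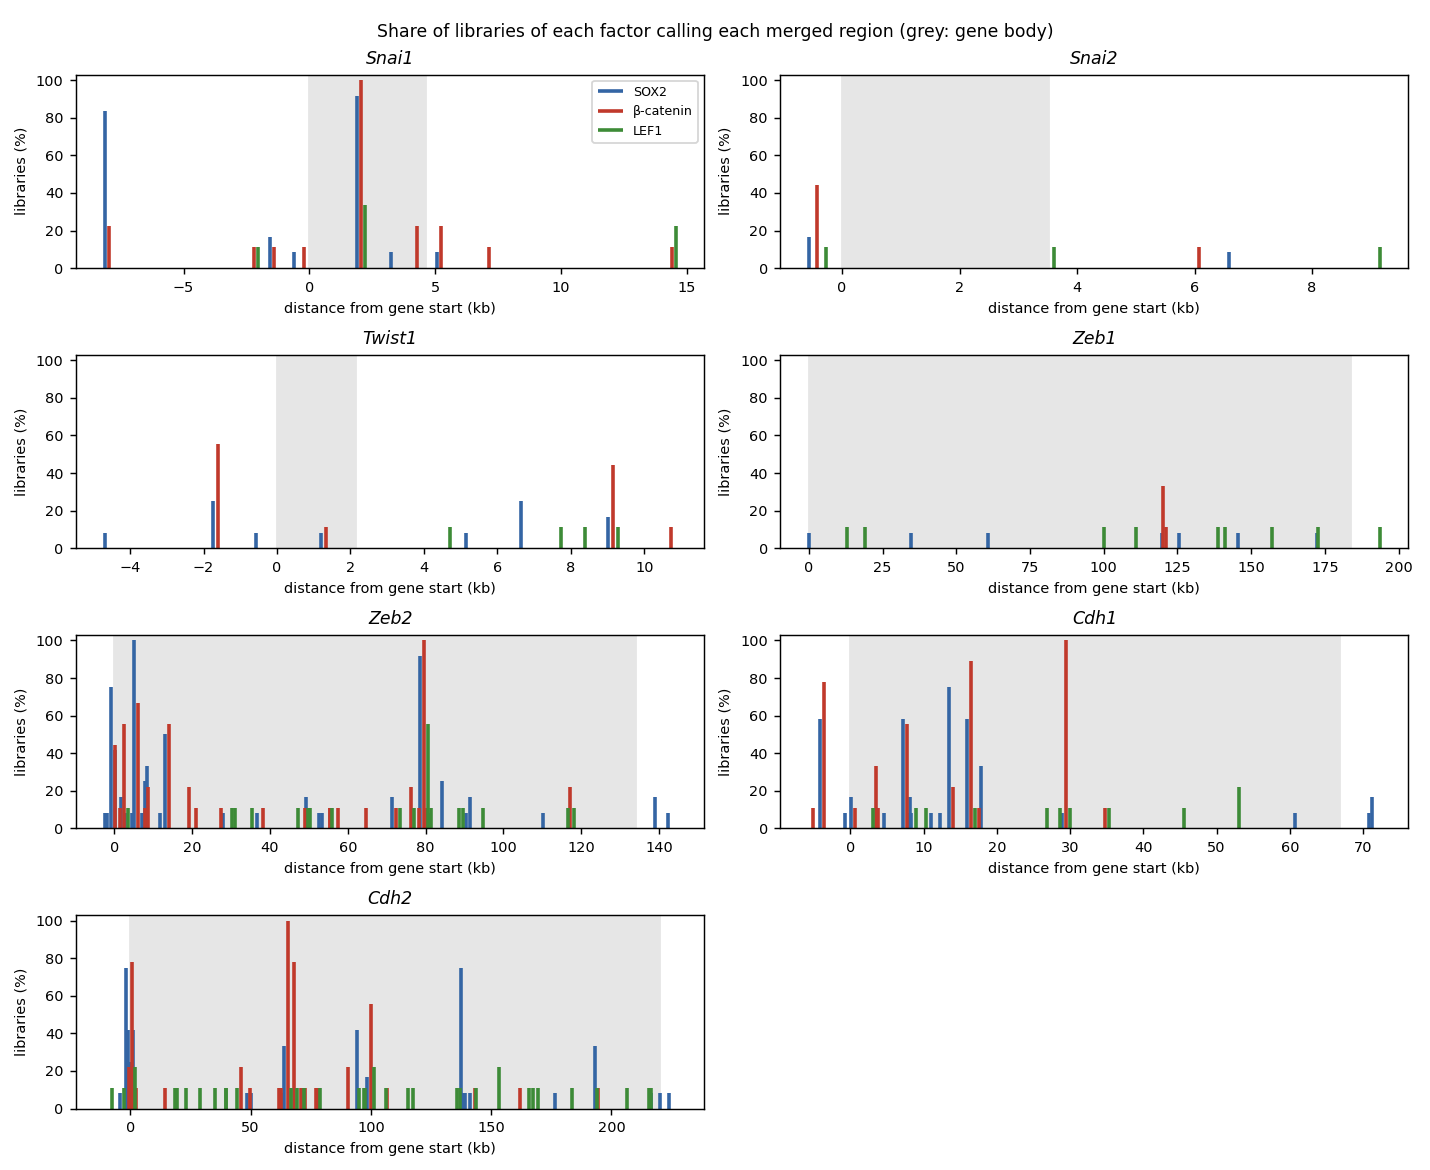
Share of the libraries of each factor (vertical axis, percent of 12 SOX2, 9 β-catenin or 9 LEF1 libraries) that called each merged region, by distance of its summit from the gene start in kb (horizontal axis). Bars of the factors are set slightly apart, and grey is the gene body. *Snai1* region 1 and *Zeb2* region 1 are called by SOX2 and β-catenin in at least 11 of 12 and 9 of 9 libraries, the bars at 29.4 kb of *Cdh1* stand at 9 of 9 libraries for β-catenin and at 1 library for SOX2 and for LEF1, and *Zeb1* has no region above 40%.

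Of the 188 regions, 68.1% were called in 1 list and 7.45% in 10 or more, against 83.7% and 2.81% of all 336403 regions. No member region was called by each of the 3 factors in at least 2 of 3 WT libraries with CHIR. The share of all regions that met this rule was not computed, so the count does not set these loci apart from others.

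The first question was whether SOX2 occupancy of these genes differed between WT cells with and without CHIR. In 2 members, *Zeb2* and *Cdh1*, fewer SOX2 peaks were found with CHIR, with no overlap between the groups. The *Zeb2* locus had 10, 10 and 7 of the 20000 best peaks without CHIR and 4, 4 and 6 with it. Every library without CHIR lay above every library with it, by 4.33 on average (9 ± 1.73 against 4.67 ± 1.15, SD, n = 3, exact permutation test p = 0.1, adjusted p = 1 over all genes). At *Cdh1* the numbers were 5, 6 and 6 without CHIR and 0, 1 and 4 with it (5.67 ± 0.577 against 1.67 ± 2.08, exact permutation test p = 0.1, adjusted p = 1). A p of 0.1 is the smallest that 3 libraries against 3 can give. Across all genes with a peak, 5.64% did not overlap between these groups, 1310 lower and 527 higher with CHIR. The share is not like for like, since genes with 0 or 1 peak mostly tie and can seldom be without overlap. Without CHIR, 95.3% and 96.4% of protein-coding genes had fewer SOX2 peaks per 100 kb than *Zeb2* and *Cdh1*. So 2 of 7 members cannot be read as an excess over that share, and the same limit holds for the peak-number shares below.

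The other members overlapped. *Cdh2* had 8, 8 and 3 peaks without CHIR and 2, 5 and 3 with it. *Twist1* had 3, 0 and 3 against 0, 1 and 1, and *Snai1* had 2, 2 and 1 against 3, 0 and 4. *Snai2* and *Zeb1* had 0 or 1 peak in every one of these libraries. Of the regions, 2 were called in 3 of 3 libraries without CHIR and 0 of 3 with it, out of 57 member regions with a call, and none the other way: *Cdh1* region 6 (18307 bp into the gene) and *Cdh2* region 9 (194412 bp into the gene). Over all regions the share was 4.04%, with 2937 called only without CHIR and 108 only with it. This share is not like for like either, since a region called in 1 list cannot be called in 3 of 3. Such regions were 68.1% of the member regions and 83.7% of all regions. The same limit holds for the region shares below. In the full lists, *Cdh1* region 6 still had a peak in 1 of 3 libraries with CHIR (rank 31138) and *Cdh2* region 9 in 2 of 3 (ranks 22544 and 47279).

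For the best-ranked peak the order at *Zeb2* was the reverse. Its best SOX2 peak ranked 2204, 2013 and 1755 without CHIR and 512, 794 and 666 with it, so that the *Zeb2* locus had fewer peaks among the 20000 best with CHIR but a better-ranked best one. Without overlap in that rank were 19.7% of all genes (3251 better and 7191 worse with CHIR), and of the members *Zeb2* alone. A rank also depends on how many peaks a list holds, so each rank result is set beside the rank as a share of the list, a scale added after the data were seen. On it *Zeb2* stood at 2.49%, 2.48% and 0.87% without CHIR and 0.0507%, 0.274% and 0.324% with it. *Zeb1* was then also better with CHIR, but 37.9% of all genes were without overlap, 19634 of them better with CHIR and 477 worse. The lists with CHIR held 205833 to 1008922 peaks and those without it 81239 to 201773, and the part of list length in these results was not tested. No member was without overlap among the 5000 best peaks or when peaks were ranked by fold enrichment.

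**Figure D3:**
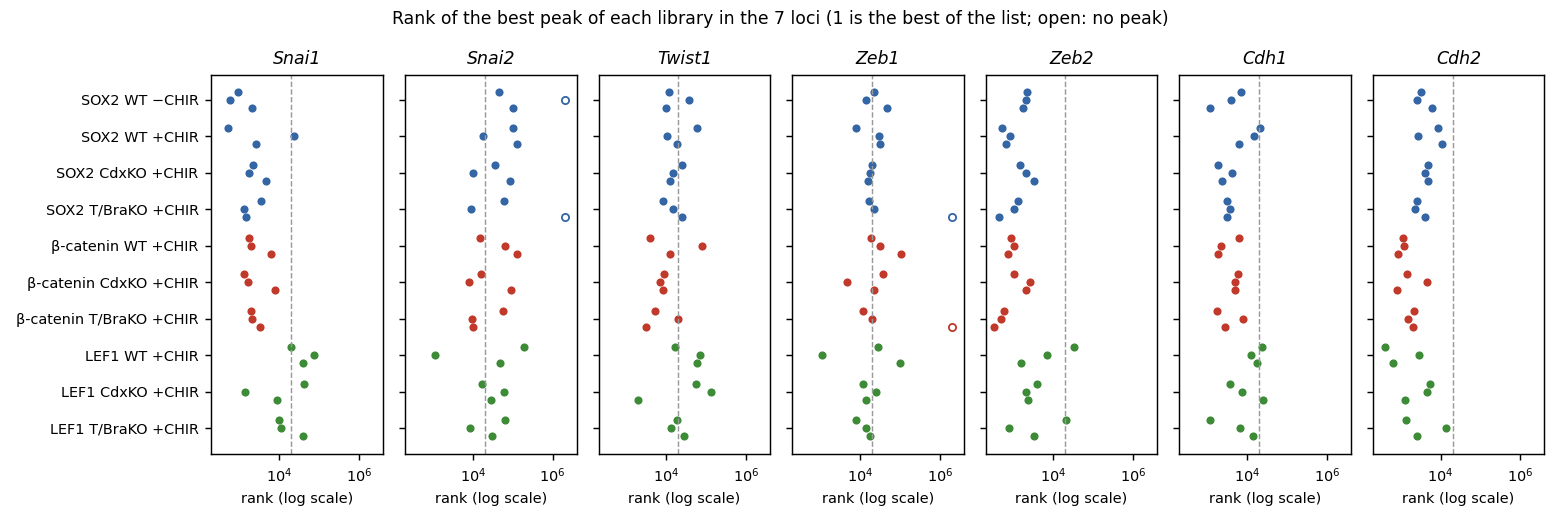
Rank of the best peak of each library in each of the 7 loci (horizontal axis, log scale, 1 is the best peak of a list), by group. The dashed line is rank 20000, and open points at the right edge are libraries with no peak in the locus. For SOX2 and β-catenin all *Zeb2* points lie from 318 to 3278, whereas only 11 of 30 *Snai2* points and 15 of 30 *Zeb1* points lie to the left of the line.

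The second question was whether occupancy of these genes differed in cells that lack the CDX factors. For SOX2, 0 of 7 members were without overlap between WT and CdxKO cells with CHIR in peak number, against 3.30% of all genes. *Cdh1* had 0, 1 and 4 peaks in WT and 8, 3 and 6 in CdxKO cells, a difference of −4 (1.67 ± 2.08 against 5.67 ± 2.52, exact permutation test p = 0.2, adjusted p = 1). *Zeb2* had 4, 4 and 6 against 10, 10 and 5, also overlapping. At the level of regions, *Cdh1* regions 1 and 2 were called in 3 of 3 CdxKO libraries and 0 of 3 WT libraries, out of 63 member regions with a call, where the share over all regions was 1.01% (767 in CdxKO only and 49 in WT only). At *Cdh1* region 1, SOX2 fold enrichment was 8.47, 11.1 and 10.3 in CdxKO cells, while in WT cells with CHIR a peak was found in replicate 2 only, at 5.02-fold. WT cells without CHIR had 9.46-, 6.82- and 10.9-fold at the same place, so that the WT libraries with CHIR were the low ones. At *Cdh1* region 2, upstream of the gene, SOX2 enrichment was 16.1-, 7.53- and 8.96-fold in CdxKO cells against 4.81-, 3.77- and 5.92-fold in WT cells with CHIR. Without CHIR it was 4.66-, 10.4- and 3.17-fold, a range that overlapped both.

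In rank of the best SOX2 peak, *Cdh1* was worse and *Zeb2* better in WT than in CdxKO cells, each without overlap, against 14.8% of all genes (5684 worse and 2204 better in WT). The ranks at *Cdh1* were 21601, 14976 and 6188 in WT and 1909, 4136 and 2363 in CdxKO cells. At *Zeb2* they were 512, 794 and 666 in WT and 1441, 2088 and 3278 in CdxKO cells. As a share of the list, *Cdh1* overlapped, at 2.14%, 5.17% and 3.01% in WT and 1.16%, 4.81% and 1.37% in CdxKO cells. *Zeb2* was without overlap on that scale too, as were 27.0% of all genes, nearly all of them better in WT (14183 against 158).

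For β-catenin, the groups were without overlap at *Snai1* in peak number and at 1 region of *Zeb2* in calls. The *Snai1* locus had 2, 1 and 1 β-catenin peaks in WT and 6, 4 and 3 in CdxKO cells, a difference of −3 with no overlap (1.33 ± 0.577 against 4.33 ± 1.53, exact permutation test p = 0.1, adjusted p = 1). Such a separation was seen in 2.38% of all genes and in 1 of 7 members. Region 1 was called in every one of these libraries. Counted as merged regions, the locus had 1, 1 and 1 in WT and 4, 2 and 2 in CdxKO cells, again without overlap. In the full lists the number of *Snai1* peaks was 4, 6 and 13 in WT and 7, 6 and 8 in CdxKO cells and overlapped, and the groups also overlapped when full lists were scaled to 20000 peaks or when the gene body alone was counted.

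*Zeb2* region 2 was called by β-catenin in 3 of 3 WT and 0 of 3 CdxKO libraries, the only such region of 62 with a call, where 0.834% of all regions were separated (380 in WT only and 233 in CdxKO only). β-catenin fold enrichment there was 11.6, 9.55 and 10.5 in WT cells, 4.80, 3.49 and 3.86 in CdxKO cells and 17.3, 14.3 and 22.8 in T/BraKO cells. The 3 CdxKO values were below the 6 others, and the WT values were below the T/BraKO ones. A peak was still found there in all 30 full lists, at ranks 38863, 35486 and 63241 in the CdxKO β-catenin lists. SOX2 called the same region in 3 of 3 CdxKO libraries, at 10.9-, 15- and 6.78-fold. *Zeb2* region 1, far from it at 79593 bp from the gene start, was called by β-catenin in all 3 CdxKO libraries, at 21.4-, 13.4- and 14.0-fold. In WT cells the values at region 1 were 21.6-, 25.2- and 29.5-fold. In rank of the best β-catenin peak, *Zeb2* was better in WT (850, 1010 and 729) than in CdxKO cells (1054, 2571 and 2092), the only member without overlap against 7.14% of all genes. As a share of the list the groups overlapped, at 2.12%, 0.931% and 0.155% in WT and 1.23%, 6.33% and 1.48% in CdxKO cells, and no member was without overlap (4.09% of all genes).

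For LEF1, 0 of 7 members were without overlap between WT and CdxKO cells in peak number (1.98% of all genes) or rank (9.93%), and 0 of 59 regions were separated (0.134%). In rank as a share of the list, *Zeb2* was worse in WT (5.46%, 0.957% and 0.877%) than in CdxKO cells (0.647%, 0.276% and 0.506%), against 8.62% of all genes. The *Cdh2* locus had 2, 4 and 10 LEF1 peaks in WT and 1, 6 and 6 in CdxKO cells, a spread within WT that was larger than the difference between the means (5.33 ± 4.16 against 4.33 ± 2.89). *Zeb2* had 0, 2 and 4 in WT and 6, 2 and 2 in CdxKO cells. Among the 20000 best, at most 3 LEF1 peaks were found in any of the other 5 loci in any library. In the same best peaks, 4 to 7 of 9 LEF1 libraries had a peak at *Twist1*, *Snai1*, *Zeb1* and *Cdh1*.

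The third question concerned cells that lack T, the T-box factor of the primitive streak. For SOX2, 0 of 7 members were without overlap in peak number between WT and T/BraKO cells (2.66% of all genes). *Cdh1* region 2 was called in 3 of 3 T/BraKO and 0 of 3 WT libraries, 1 of 51 member regions with a call against 0.760% of all regions (587 in T/BraKO only and 37 in WT only). Enrichment there was 10.7-, 6.62- and 9.50-fold in T/BraKO cells, above all 3 WT values given above. The best SOX2 peak at *Cdh1* ranked 3128, 3827 and 3205 in T/BraKO cells, ahead of all WT libraries with CHIR, and 11.5% of all genes were without overlap in that rank, 5134 of 6089 in this direction. As a share of the list *Cdh1* overlapped, at 1.17%, 3.67% and 11.9% in T/BraKO and 2.14%, 5.17% and 3.01% in WT cells. *Zeb2* was without overlap on that scale, better in WT, as were 11392 of the 11405 genes (21.5%) without overlap. The same WT libraries enter the comparisons with CdxKO cells and with cells without CHIR.

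For β-catenin, *Snai1* was again without overlap, with 2, 1 and 1 peaks in WT and 5, 3 and 3 in T/BraKO cells (1.33 ± 0.577 against 3.67 ± 1.15, difference −2.33, exact permutation test p = 0.1, adjusted p = 1). It was 1 of 7 members, against 3.14% of all genes, and rests on the same 3 WT libraries as the comparison with CdxKO cells. In full lists, *Snai1* had 9, 8 and 5 peaks in T/BraKO cells and 4, 6 and 13 in WT cells, which overlapped. No member region of 51 was called in 3 of 3 and 0 of 3 libraries, against 1.43% of all regions. The best β-catenin peak at *Zeb2* was better in T/BraKO cells (593, 475 and 318) than in WT cells, and at *Cdh2* it was better in WT cells (1144, 1200 and 837) than in T/BraKO cells (2208, 1528 and 2098). A rank without overlap was found for 7.93% of all genes. As a share of the list both overlapped: *Zeb2* stood at 0.446%, 0.773% and 0.844% in T/BraKO and 2.12%, 0.931% and 0.155% in WT cells, and *Cdh2* at 1.66%, 2.49% and 5.57% and at 2.86%, 1.11% and 0.178%. No member was without overlap on that scale (4.93% of all genes).

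In 2 of 3 WT libraries the best *Cdh2* peak lay in region 6, 68034 bp into the gene, which was singled out after its values were seen. β-catenin was enriched there 16.9-, 17.7- and 37.6-fold in WT and 16.7-, 9.48- and 19.8-fold in CdxKO cells. In T/BraKO cells a peak was found in 2 of 3 full lists, at 3.19- and 5.57-fold, and 1 of them was among the 20000 best (rank 14995). LEF1 called this region among the 20000 best in WT replicate 3 only, at 11.4-fold and rank 633. In the full lists LEF1 had a peak there in 3 WT, 3 CdxKO and 1 T/BraKO libraries. SOX2 had a peak there in 2 of 12 full lists and none among the 20000 best. For *Cdh2* region 6 and *Zeb2* region 2 alike, a peak call in a full list was thus kept in at least 1 library of each β-catenin group.

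For LEF1, 0 of 7 members were without overlap between WT and T/BraKO cells in peak number (2.21% of all genes) or rank (9.80%, or 7.77% as a share of the list), and 0 of 51 regions were separated (0.127%). *Cdh2* had 2, 4 and 10 LEF1 peaks in WT and 4, 2 and 2 in T/BraKO cells.

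**Figure D4:**
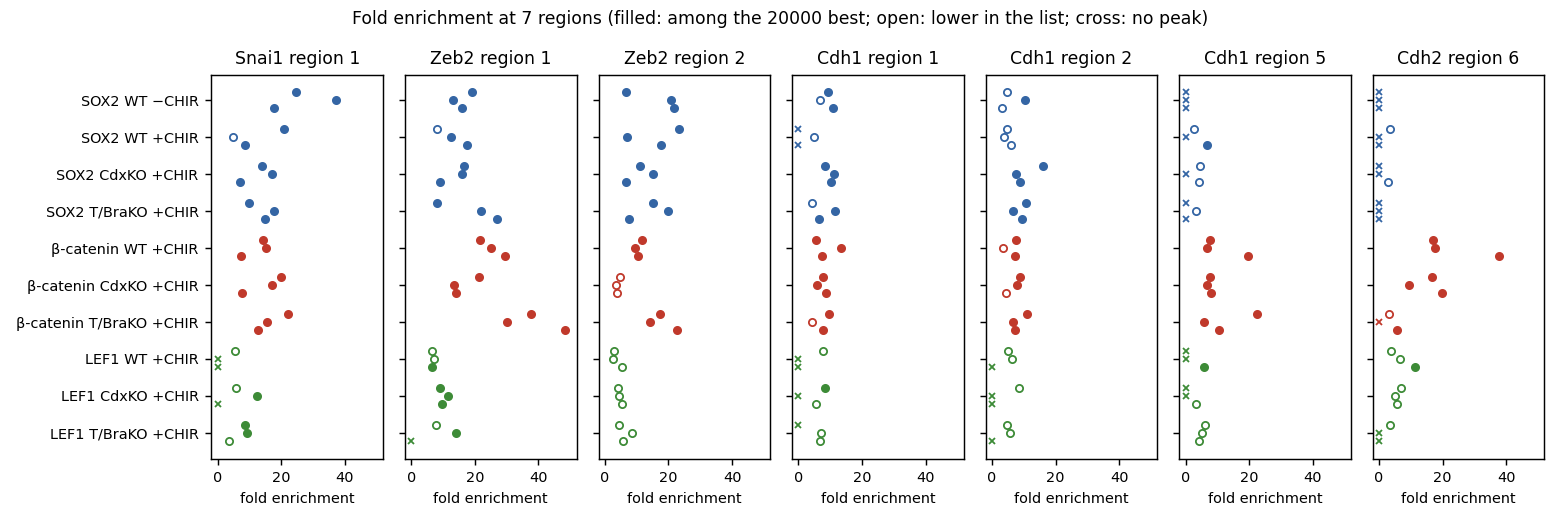
Fold enrichment over background at the summit (horizontal axis) of the best peak of each library in 7 regions, by group. Filled points are among the 20000 best peaks of the library, open points are lower in its list, and crosses are libraries with no peak. At *Zeb2* region 2 the 3 β-catenin CdxKO libraries are open and at 3.49 to 4.80, while at *Cdh2* region 6 the T/BraKO libraries are the low ones, and *Cdh1* regions 1 and 2 are open or absent for SOX2 in WT cells with CHIR.

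Each mutant was also compared with the 6 libraries of the other 2 genotypes, a design in which an exact permutation test over 84 assignments can reach p = 0.0119. In peak number, no member reached an unadjusted p of 0.05 for any factor or mutant. Over all genes that share was 1.44% (SOX2, CdxKO), 1.00% (SOX2, T/BraKO), 1.52% (β-catenin, CdxKO), 1.99% (β-catenin, T/BraKO), 1.08% (LEF1, CdxKO) and 1.23% (LEF1, T/BraKO). In log10 rank of the best peak, *Zeb2* did so in 3 of 6 tests. For SOX2 it was worse in CdxKO cells (3.33 ± 0.179, n = 3) than in the other genotypes (2.87 ± 0.182, n = 6), with no overlap (exact permutation test p = 0.0119, adjusted p = 1, background 3.22%). For β-catenin the values were 3.25 ± 0.203 in CdxKO cells and 2.79 ± 0.182 in the others (exact permutation test p = 0.0119, adjusted p = 0.888, background 4.45%). For β-catenin it was better in T/BraKO cells, at 2.65 ± 0.137 against 3.09 ± 0.221 (exact permutation test p = 0.0357, adjusted p = 0.921, background 4.79%). None of these passed adjustment over all genes, and the tests share libraries. In rank as a share of the list the *Zeb2* groups overlapped in all 3 tests, with exact permutation p values of 0.0952, 0.0952 and 0.44 in the order given. On that scale no member reached p = 0.05 by the exact permutation test for any factor or mutant, against 0.737% (SOX2, CdxKO), 3.87% (SOX2, T/BraKO), 1.54% (β-catenin, CdxKO), 1.66% (β-catenin, T/BraKO), 3.49% (LEF1, CdxKO) and 3.99% (LEF1, T/BraKO) of all genes. No other member reached p = 0.05 in rank by the exact permutation test. The background of the remaining tests was 5.64% (SOX2, T/BraKO), 4.76% (LEF1, CdxKO) and 4.95% (LEF1, T/BraKO).

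Among 34 other genes of epithelial-mesenchymal transition, few were without overlap in peak number, and 32 to 34 could be tested in each comparison. Between WT and CdxKO cells, 1 of 32 (3.12%) was without overlap for each factor, beside 3.30% (SOX2), 2.38% (β-catenin) and 1.98% (LEF1) of all genes. For SOX2 it was *Tcf4*, which encodes a bHLH partner of Twist factors, with 7, 7 and 6 peaks in WT and 5, 3 and 3 in CdxKO cells. For β-catenin it was *Ovol1*, a zinc-finger gene of epithelia, with 1, 1 and 1 against 0, 0 and 0. For LEF1 it was *Ctnnb1*, the gene of β-catenin itself, with 1, 1 and 2 in WT and 0, 0 and 0 in CdxKO cells. Between WT and T/BraKO cells, 1 of 33 (3.03%, beside 3.14% of all genes) was without overlap for β-catenin: *Pard3*, a polarity gene, with 6, 5 and 6 peaks in WT and 3, 4 and 4 in T/BraKO cells. These shares are near those of all genes, and each of the 4 has an exact permutation p of 0.1 and an adjusted p of 1. In the other 3 comparisons none of the 33 or 34 genes tested was without overlap. The median difference in peak number over these genes was −0.333 to 0 in the 7 comparisons, over the 7 members −1.67 to 0, and over all genes tested 0 in each. These medians are not like for like, since genes with 0 or 1 peak can differ by 1 peak at most. They cannot be read as a shift of the members against other genes.

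The protein-coding genes whose pattern over the 30 libraries was most like that of a member, by Pearson's r of the centred log10 share of the list at which the best peak stood, were *Pmaip1* (r = 0.866), *Klhl14* (0.811) and *Gata6* (0.796) for *Snai1*. For *Zeb2* they were *Acp5* (0.758), *Tmem65* (0.752) and *Larp7* (0.749), and for *Cdh1* they were *Krt82* (0.712), *Impa1* (0.708) and *H2-Ob* (0.705). *Cdh2* was most like *Tcf4* (0.725), *Vmn1r54* (0.724) and *Kif27* (0.724). *Snai2* (0.748 to 0.765), *Twist1* (0.703 to 0.711) and *Zeb1* (0.667 to 0.678) had their 3 closest genes in the ranges given. The points share factor, library and list length, 21930 genes were searched, and the values are descriptions only.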

How the data were processed

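ChIP–seq peak lists of 30 immunoprecipitated libraries were analysed, 3 in each of 10 groups. A further 12 input samples were not used. The authors processed single-end reads with nf-core chipseq, aligning them to mm10 with BWA and calling narrow peaks in each library with MACS2 (named per the labels, version not given). The input used as control for a library is not given in the sources used here. Each deposited peak has a ratio, its fold enrichment at the summit, a −log10 p and a −log10 q of that summit, and a score made from −log10 q, which was left aside. The summit offset gave the centre of a peak. Read depth is unknown, since no list gives read counts, and list length stands beside the results in its place.

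Genes were taken from GENCODE M21 (basic set). Peaks were ranked within a list by −log10 q, then by −log10 p, fold enrichment and position. The number of the 20000 best peaks per locus was compared by a two-sided exact permutation test (20 assignments for 3 against 3), with Benjamini-Hochberg adjustment over all genes with a peak in any of the libraries compared. A gene or region was called where the groups did not overlap, or were called in 3 of 3 and 0 of 3 libraries. The scripts (Python 3.11.15, NumPy 2.4.6, pandas 2.3.3, pysam 0.24.0) were tested on simulated data. Within a group, lists shared few identical intervals. Replicates are biological per the labels. The ends of the peaks lay within the chromosomes of the GRCm38.p6 reference, from which windows of 100 bp on each side of a summit were read. Sequences of some loci are not reported here.

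All 7 members are named. Of the 34 other genes, at most 4 per comparison are named, those without overlap and with the largest difference. Regions described by rule are the most often called one of each member and any called in 3 of 3 against 0 of 3 libraries, and the others were singled out after their values were seen. The members and lists were chosen with earlier results of these data known. Alternatives were 5000 best peaks, full lists scaled to 20000, ranking by fold enrichment, the gene body alone or extended by 50 kb, the summit in the locus, the rank of the best peak, a replicate block, each library left out and, chosen after seeing the data, merged regions in place of peaks and the rank of the best peak as a share of its list.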

Additional observations from a re-analysis of the deposited data

How the results depend on the processing

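Of 131 recomputed counts, 81 stayed within 1.5 times the reported one and 50 did not. For SOX2 with and without CHIR (2 members), the count was 0 with the 5000 best peaks, with ranking by fold enrichment and with 50 kb extension, 1 with the gene body alone (*Cdh1*), with the rank of the best peak and with merged regions (*Zeb2*), and 4 with scaled full lists (*Snai1*, *Twist1*, *Zeb2* and *Cdh2*, all lower with CHIR). The difference at *Zeb2* reversed with the rank of the best peak, to 0.486 on the log10 scale in favour of CHIR. For SOX2 in WT and CdxKO cells (0 members), it was 1 with the 5000 best peaks (*Cdh1*) and with 50 kb extension (*Cdh2*), and 2 with scaled full lists (*Snai1* and *Twist1*) and with rank. For β-catenin in WT and CdxKO cells (1 member), it was 0 with scaled full lists and with the gene body alone, and 2 with ranking by fold enrichment (*Snai1* and *Cdh1*). For SOX2 in WT and T/BraKO cells (0 members), it was 1 with the 5000 best peaks (*Cdh1*), ranking by fold enrichment (*Zeb2*), the gene body alone (*Zeb2*), 50 kb extension (*Twist1*) and rank (*Cdh1*). For β-catenin in WT and T/BraKO cells (1 member), it was 0 with scaled full lists and with the gene body alone, and 2 with rank. LEF1 had 0 members in these settings. With rank as a share of the list, added after the data were seen, the count was 2 for SOX2 with and without CHIR (*Zeb1* and *Zeb2*, in place of *Zeb2* and *Cdh1*), 1 for SOX2 in each mutant and for LEF1 in CdxKO (*Zeb2*), and 0 for β-catenin in both mutants. On its log10 scale the difference reversed at *Zeb2* for CHIR (1.03 in favour of CHIR) and at *Snai1* for β-catenin (0.17 and 0.201 in favour of WT over CdxKO and T/BraKO). With rank in place of peak number, 1 mutant against the other 2 genotypes gave 1 member, *Zeb2*, in place of 0 for SOX2 in CdxKO and for β-catenin in both mutants. In full lists, regions called in 3 of 3 against 0 of 3 went from 2 to 5 for SOX2 with and without CHIR. Of these 5, 1 was called with CHIR only and 4 without it only. Such regions went from 1 to 0 for β-catenin in WT and CdxKO cells. For LEF1 in WT and T/BraKO cells they went from 0 to 1, in T/BraKO only. For SOX2 in WT and CdxKO cells, 2 CdxKO-only regions were replaced by 2 CdxKO-only and 1 WT-only. For SOX2 in WT and T/BraKO cells, 1 T/BraKO-only region was replaced by 1 WT-only. Each region called among the best peaks had a peak in a full list of its 0 of 3 group, so none kept its call. The causes were not tested.

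Leaving out 1 library at a time, the count ran from 2 to 3 for SOX2 with and without CHIR, from 1 to 2 for SOX2 in WT and CdxKO cells (2 without WT replicate 3), from 1 to 2 for β-catenin in WT and CdxKO cells (2 without WT replicates 1 or 3 or CdxKO replicate 3), from 0 to 2 for SOX2 in WT and T/BraKO cells (2 without WT replicate 3, 1 without T/BraKO replicate 3), from 1 to 2 for β-catenin in WT and T/BraKO cells (2 without replicate 3 of either), and from 0 to 1 for LEF1 in WT and T/BraKO cells (1 without WT replicate 2). It was 0 throughout for LEF1 in WT and CdxKO cells. Without WT replicate 3 with CHIR, both *Zeb2* and *Cdh1* were lower in WT than in either mutant for SOX2. Groups without overlap stay so when a library is left out, so these counts can only rise and say nothing of the stability of a call.

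Replicate numbers did not pair the libraries: same-numbered libraries deviated together with correlations of −0.0297 to 0.0407, and 9 of 21 correlated best with their own number. With a replicate block (the same sign in all 3 pairs), the count was 4 for SOX2 in WT and CdxKO cells (*Snai1*, *Zeb1*, *Cdh1* and *Cdh2*), beside 5.56% of all genes, 3 for β-catenin in WT and CdxKO cells (*Snai1*, *Zeb2* and *Cdh1*), beside 4.22%, and 1 for SOX2 in WT and T/BraKO cells (*Cdh1*), beside 4.84%, all lower in WT. The block changed no other count.

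Of 735 single differences, 668 kept their call or lack of one, 18 lost the call, 45 gained one and 4 reversed. Numbers of 0 to 4 peaks per locus leave many ties, and a peak missing from a list can reflect depth as well as occupancy.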
